A study of Homo sapiens with 12 samples.

Results

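The genes described here are 9 regulators and surface proteins of epithelial cells: the transcription factors GRHL2, ELF3 and OVOL1, the splicing factors ESRP1 and ESRP2, the small GTPase RAB25, the membrane serine proteases ST14 (matriptase) and PRSS8 (prostasin), and their inhibitor SPINT1 (HAI-1). They were chosen by symbol, 9 of the 57905 genes in the deposited expression table, and each had a single entry. All 9 were among the 14699 genes tested, the genes that reached 1 FPKM in 2 or more libraries. FPKM is a level scaled to gene length and to the number of fragments in the library, so levels of different genes may be set side by side. The libraries come from 3 EGFR-mutant non-small cell lung cancer lines, PC9, HCC827 and HCC4006, grown in RPMI-1640 with serum. The control groups received the solvent DMSO for 24 hours. The groups named dormant received the EGFR inhibitor osimertinib at 100 nM together with the MEK inhibitor trametinib at 30 nM for 2 weeks. There were 2 stranded mRNA libraries in each of the 6 groups. Each line is 1 established cell line, nothing states that a pair of libraries came from separate cultures, and p-values therefore measure only the spread between these libraries, which may be technical. Drug exposure and length of culture differed together between the groups and cannot be told apart. In bulk RNA, fewer cells of a kind and less RNA per cell cannot be told apart either.

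As background, grainyhead factors such as GRHL2 and the ETS factor ELF3 bind enhancers and promoters of epithelial genes, and OVOL1 is a zinc finger repressor that counters the ZEB and SNAI repressors of the epithelial state. ESRP1 and ESRP2 bind RNA and direct the epithelial choice of exons in transcripts such as FGFR2 and CD44. RAB25, a RAB11-class GTPase, takes part in the recycling of integrins and receptors to the surface of epithelial cells. ST14 and PRSS8 activate one another at the cell surface and cleave substrates that include sodium channel subunits and PAR2 (F2RL1), and SPINT1 is a Kunitz inhibitor of both. These genes are usually high in epithelial cells and low after an epithelial to mesenchymal transition.

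Replicate 2 of dormant HCC4006 and replicate 2 of DMSO HCC827 stood apart from the other 10 libraries. GAPDH was at 6.72 FPKM in the first of these against 3755 to 19640 in the remaining 11, and ACTB was at 1380 and 1842 FPKM in these 2 libraries against 7915 to 18600 elsewhere. Replicates correlated across genes with Pearson's r of 0.654 in dormant HCC4006, 0.909 in DMSO HCC827 and 0.979 to 0.991 in the other 4 groups, where genes are not independent replicates. Tests of the 9 genes are therefore given for all 12 libraries and for the 10 without these 2, and for a further gene the mean difference in the 10 libraries follows in parentheses. In the latter, dormant HCC4006 and DMSO HCC827 are 1 library each, assumed to vary like the other groups. Of the marker lists, the 5 epithelial markers EPCAM, KRT8, KRT18, KRT19 and KRT7 summed to 936.6 to 22940 FPKM, and both lowest sums were in the same 2 libraries. Replicate 1 of dormant HCC4006 summed to 5678 FPKM, against 10830 and 12080 FPKM in DMSO HCC4006. In the 10 libraries their dormant minus DMSO differences in log2(FPKM + 1), averaged over lines, were all below 0. They were -1.33 for KRT18, -0.52 for KRT8, -0.43 for KRT19, -0.40 for EPCAM and -0.03 for KRT7. By line, KRT19 was at 0.90 in PC9, 0.59 in HCC827 and -2.77 in HCC4006. The 5 leukocyte markers summed to at most 1.1 FPKM, and 1 of them was at 0 throughout. The 3 endothelial markers found summed to at most 3.05 FPKM. The 5 fibroblast markers summed to 263 and 375.6 FPKM in dormant HCC4006, almost all of it COL1A2 with DCN at 0, and to at most 3.71 elsewhere. The lung adenocarcinoma markers NKX2-1, NAPSA and SFTPB were close to absent in PC9, where they summed to 0.075 to 0.37 FPKM, and summed to 7.97 to 76.0 FPKM in HCC827 and HCC4006.

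In DMSO the 3 lines differed in how much of this set they carried. RAB25 was highest in HCC4006, at 77.4 and 83.2 FPKM, followed by PC9 at 41.3 and 37.5 FPKM and HCC827 at 2.07 and 1.32 FPKM, with no overlap between lines. It was the 1 gene of the 9 whose DMSO level differed between lines in all 12 libraries (limma's moderated F test on log2(FPKM + 1), adjusted p = 0.00542), where 12% of all genes tested passed. PRSS8 had the same order, with 19.0 and 17.6 FPKM in HCC4006, 15.8 and 13.6 FPKM in PC9, and 1.77 and 0.03 FPKM in HCC827. SPINT1 was also highest in HCC4006, at 17.1 and 21.2 FPKM, with 6.14 and 3.33 FPKM in HCC827 and 3.02 and 3.04 FPKM in PC9. These 3 genes of traffic and of the cell surface had their highest DMSO levels in HCC4006, while the transcription factors GRHL2 and OVOL1 had theirs in PC9. GRHL2 was there at 8.86 and 10.5 FPKM, and the values of HCC827 (1.79 and 0.79) and HCC4006 (1.34 and 1.84) overlapped. OVOL1 was low in every line, at 2.28 and 1.39 FPKM in PC9, 1.16 and 0.15 FPKM in HCC827, and 0.435 and 0.445 FPKM in HCC4006. ELF3 ranged from 10.1 to 34.9 FPKM in HCC827, across the values of both other lines. ESRP2 was at 8.95 and 2.59 FPKM in HCC827, which overlaps the values of HCC4006, and lower in PC9. For ESRP1 the lines lay close, with DMSO means of 13.0 ± 0.644 FPKM in HCC827, 11.8 ± 6.04 FPKM in HCC4006 and 11.3 ± 0.41 FPKM in PC9 (SD, n = 2 each). ST14 was likewise at 8.77 ± 1.00 FPKM in PC9, 7.77 ± 0.325 FPKM in HCC4006 and 4.37 ± 4.48 FPKM in HCC827 (SD, n = 2 each). In the other 10 libraries the DMSO levels of 7 of the 9 genes differed between lines, all but ESRP1 (limma adjusted p = 0.83) and ST14 (adjusted p = 0.824), beside 48.4% of all genes tested.

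**Figure D1:**
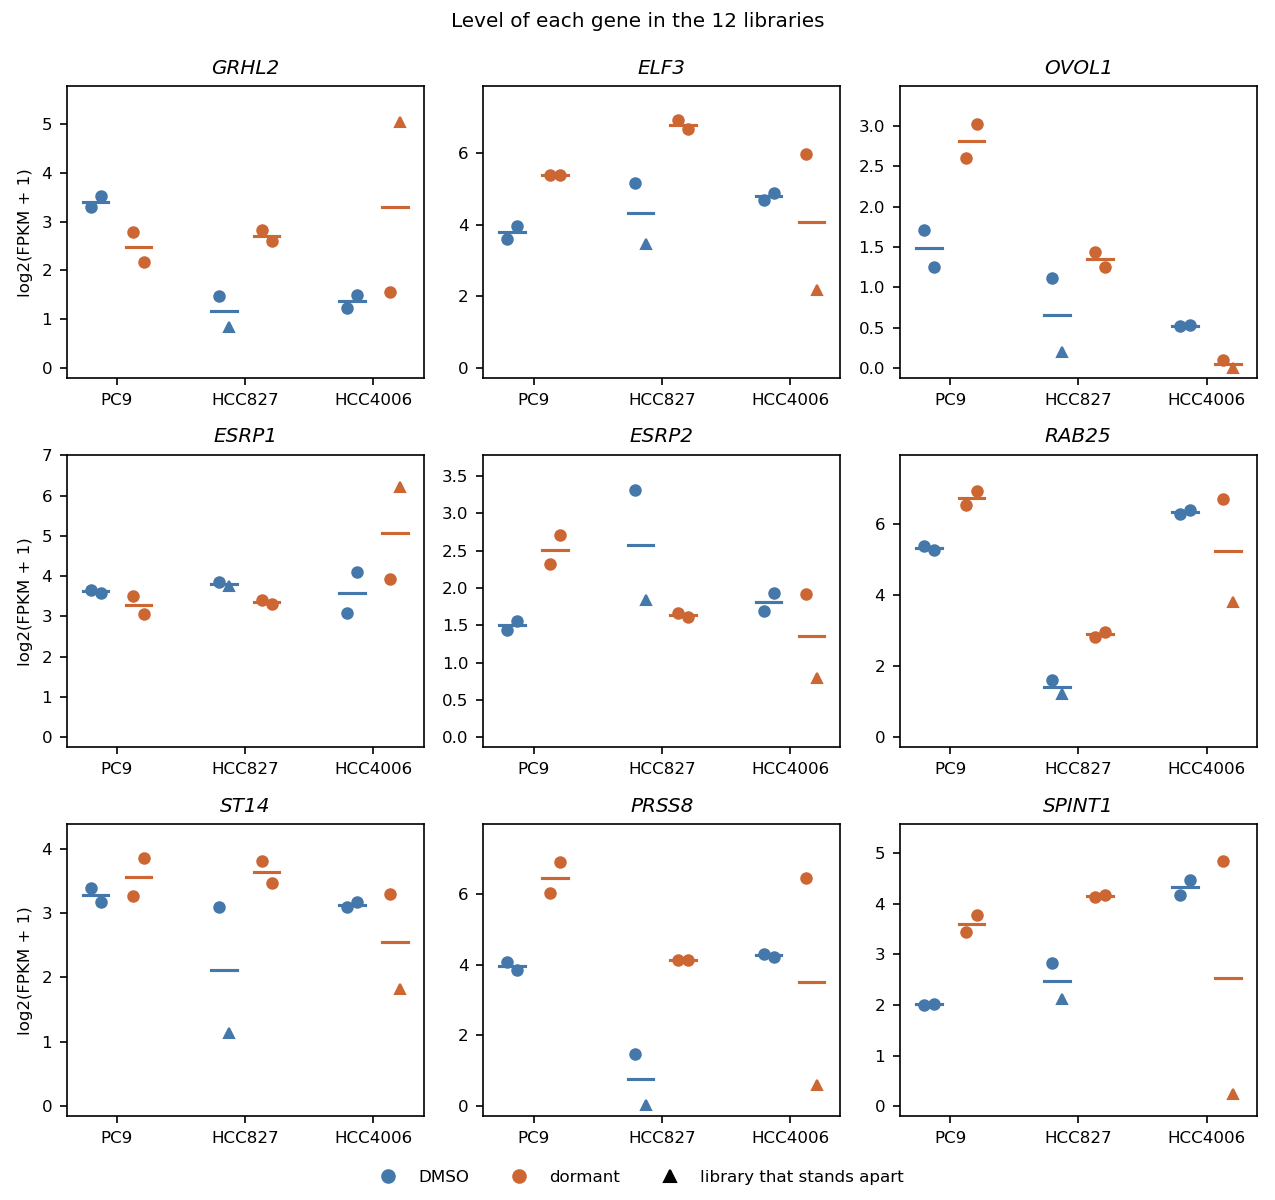
Level of each gene in the 12 libraries as log2(FPKM + 1) on the vertical axis, with DMSO (blue) and dormant (orange) libraries of each line on the horizontal axis; points are libraries, bars are means of 2 and triangles mark the 2 libraries that stand apart. In PC9 and HCC827 both dormant libraries lie above both DMSO libraries for ELF3, RAB25, SPINT1 and PRSS8, while the 2 dormant HCC4006 libraries lie more than 1 unit apart for 8 of the 9 genes.

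Dormant and DMSO cells were then compared in the 3 lines together. With all 12 libraries none of the 9 genes passed the test of the mean difference over lines (limma, Benjamini-Hochberg over all 14699 genes), while 10.9% of all genes tested were called higher and 4.55% lower. At an unadjusted p under 0.05 there was 1 of the 9, OVOL1, beside 32.3% of all genes. The mean difference, dormant minus DMSO on the log2(FPKM + 1) scale, which understates changes of low genes, was above 0 for 8 of the 9 genes, with a median of 0.52 (0.38 in the 10 libraries), beside 63.5% and a median of 0.22 over all genes tested. Division by median-of-ratios size factors took the median of all genes to 0.03, and the share of called genes that were higher from 70.5% to 49.3%. Without the 2 libraries that stood apart, 4 of the 9 genes rose and 0 fell, beside 30% of all genes called higher and 12.8% called lower. PRSS8 rose by 2.45 ± 0.19 (SE, adjusted p = 2.9e-05), ELF3 by 1.47 ± 0.15 (adjusted p = 9.71e-05), SPINT1 by 1.15 ± 0.15 (adjusted p = 0.000487) and RAB25 by 1.02 ± 0.14 (adjusted p = 0.000681). These 4 were also the genes called without replicate 2 of dormant HCC4006 alone. Without replicate 1 of dormant HCC4006 in its place, GRHL2 was the gene called, at a difference of 1.43 (limma adjusted p = 0.000391), and without replicate 1 of DMSO HCC827 it was OVOL1, at 0.67 (adjusted p = 0.043).

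**Figure D2:**
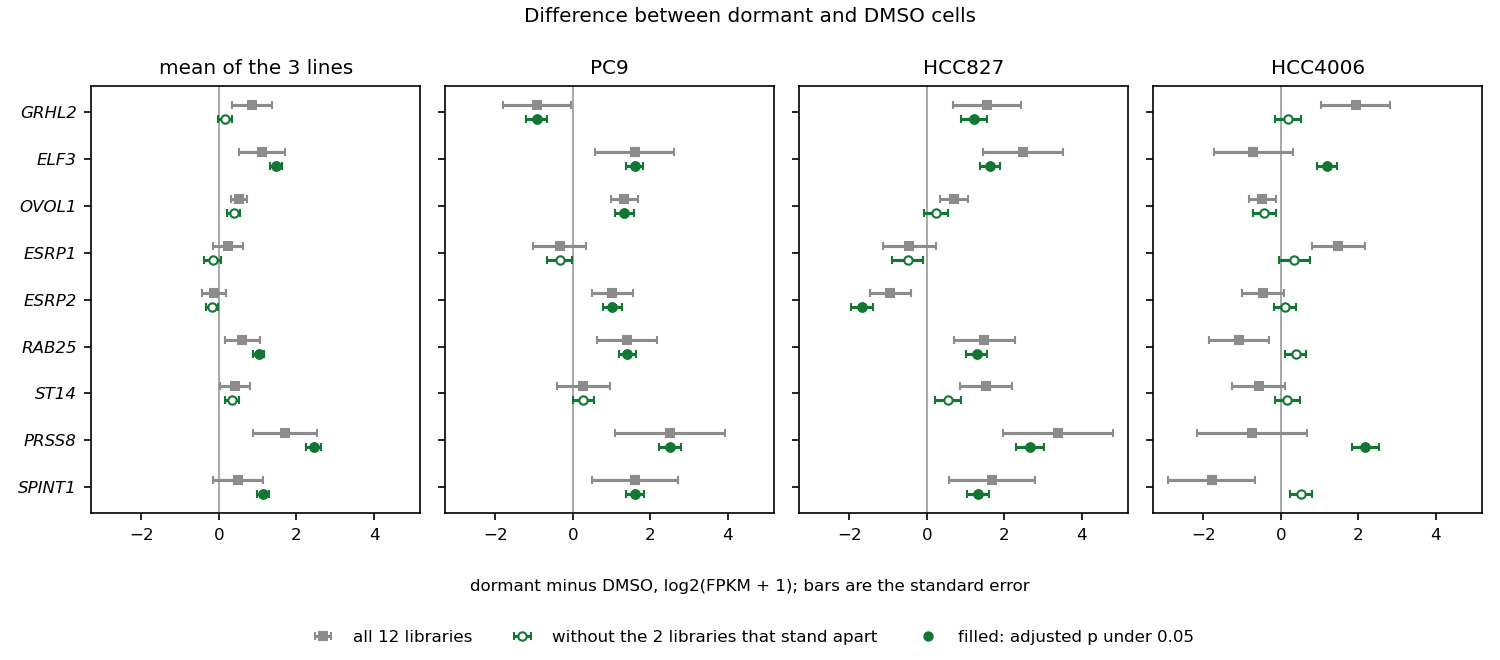
Dormant minus DMSO difference of each gene on the horizontal axis in log2(FPKM + 1), for the mean of the 3 lines and for each line; squares are all 12 libraries, circles the 10 libraries, bars the standard error of the limma fit, and filled circles have an adjusted p under 0.05. No square passed the test, and the circles of ELF3 and PRSS8 are filled in every panel.

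In PC9 the dormant libraries lay above both DMSO libraries for 6 of the 9 genes (ESRP2, OVOL1, ELF3, RAB25, SPINT1 and PRSS8), below both for ESRP1 and GRHL2, and overlapped for ST14. Of all genes tested, 35.5% lay above and 27% below in this line. With all 12 libraries 0 of the 9 were called in PC9, where 1.82% of all genes were called higher and 0.891% lower, and OVOL1 alone had an unadjusted p under 0.05. In the 10 libraries the same 6 genes were called higher and GRHL2 lower, beside 13.1% and 8.65% of all genes. PC9 itself contributes the same 4 libraries to both fits, so its differences are identical and only the estimate of the spread changed. In HCC827 7 of the 9 genes lay above both DMSO libraries (GRHL2, OVOL1, ELF3, RAB25, ST14, SPINT1 and PRSS8) and ESRP1 and ESRP2 lay below, beside 40% and 19.4% of all genes. None was called with all 12 libraries, where 3.06% of all genes were higher and 1.44% lower, and 3 had an unadjusted p under 0.05 (ELF3, ST14 and PRSS8). GRHL2, ELF3, RAB25, SPINT1 and PRSS8 were called higher and ESRP2 lower in the 10 libraries, beside 11.1% and 6.57% of all genes. In HCC4006 GRHL2 lay above both DMSO libraries, OVOL1 lay below and 7 genes overlapped, beside 30.4% and 15.8% of all genes. None of the 9 was called there with all 12 libraries or had an unadjusted p under 0.05 (4.88% of all genes were called higher, 1.18% lower). ELF3 and PRSS8 were called higher in the 10 libraries (14.9% and 3.72% of all genes). With all 12 libraries the median difference of the 9 genes was 1.33 in PC9, 1.52 in HCC827 and -0.57 in HCC4006, beside 0.05, 0.22 and 0.15 over all genes tested. In the 10 libraries the median of the 9 was 1.33 in PC9, 1.23 in HCC827 and 0.35 in HCC4006, so its sign in HCC4006 depended on the libraries that stood apart.

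The test that the differences of the 3 lines were equal passed for 0 of the 9 genes with all 12 libraries, where 1.48% of all genes passed, and 1, OVOL1, had an unadjusted p under 0.05. It passed in the 10 libraries for ESRP2, GRHL2 and OVOL1 (limma's moderated F test, adjusted p = 0.00705, 0.0351 and 0.0482), beside 8.92% of all genes. Each of these 3 had differences of opposite sign in PC9 and in another line.

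Of the transcription factors, ELF3, which activates epithelial genes and responds to inflammatory signals, was at 11.1 and 14.7 FPKM in DMSO PC9 and 40.6 and 40.8 FPKM in dormant PC9. In HCC827 it went from 34.9 and 10.1 FPKM to 120.2 and 101.1 FPKM, the highest of its levels. In HCC4006 it was at 24.9 and 28.7 FPKM in DMSO and at 62.3 and 3.52 FPKM in dormant cells, so that 1 dormant library was above and the other below both controls. The differences were 1.59 ± 0.22 in PC9, 1.63 ± 0.27 in HCC827 and 1.19 ± 0.27 in HCC4006 in the 10 libraries (SE, limma adjusted p = 0.00112, 0.00366 and 0.0162). ELF3 with all 12 libraries had differences of 1.59 ± 1.02, 2.48 ± 1.02 and -0.71 ± 1.02, none of which passed. GRHL2, which maintains expression of junction genes, had lower values in dormant PC9, at 5.87 and 3.52 FPKM against 8.86 and 10.5 FPKM. In HCC827 it was higher in dormant cells, at 6.08 and 5.04 FPKM against 1.79 and 0.79 FPKM. Dormant HCC4006 held 1.94 and 31.9 FPKM against 1.34 and 1.84 FPKM in DMSO, and the value of 31.9 was in the library that stood apart. GRHL2 in the 10 libraries fell by 0.93 ± 0.27 on the log2 scale in PC9 (SE, limma adjusted p = 0.0404), rose by 1.23 ± 0.34 in HCC827 (adjusted p = 0.0359) and had a difference of 0.19 ± 0.34 in HCC4006 (adjusted p = 0.736). GRHL2 with all 12 libraries had differences of -0.93, 1.55 and 1.93, each ± 0.88, and none passed. OVOL1 was at 5.07 and 7.13 FPKM in dormant PC9 against 2.28 and 1.39 FPKM, and rose by 1.33 ± 0.25 in the 10 libraries (SE, limma adjusted p = 0.00536), where the same difference with all 12 had an SE of 0.36 (adjusted p = 0.104). In dormant HCC4006 it was at 0.075 and 0 FPKM against 0.435 and 0.445 FPKM, all under 1 FPKM. In HCC827 it was at 1.72 and 1.39 FPKM in dormant cells against 1.16 and 0.15 FPKM.

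Of 11 other epithelial transcription factors tested, 3 rose and 0 fell in the mean over lines with all 12 libraries. Of all genes tested, 10.9% were called higher and 4.55% lower there. GRHL1, a paralog of GRHL2, rose by 0.87 ± 0.19 (SE, limma adjusted p = 0.0147, 0.74 in the 10 libraries). GRHL3, the paralog that acts in barrier formation, rose by 0.71 ± 0.13 (adjusted p = 0.00645, 0.69 in the 10 libraries), from 0.08 and 0.07 FPKM to 1.38 and 0.96 FPKM in PC9. By line its difference with all 12 libraries was 1.01 in PC9, 1.16 in HCC827 and -0.04 in HCC4006. Its mean call was lost with trends on GC content and transcript length removed. The median difference of the 11 genes was 0.71 with all 12 libraries and 0.21 in the 10, beside 0.22 and 0.20 over all genes tested.

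The splicing factors did not pass the test in the mean over lines. ESRP1 was at 10.4 and 7.38 FPKM in dormant PC9 against 11.6 and 11.1 FPKM in DMSO, and at 9.64 and 8.89 FPKM in dormant HCC827 against 13.5 and 12.6 FPKM. The dormant values were the lower ones in both lines, with differences of -0.34 ± 0.68 and -0.45 ± 0.68 with all 12 libraries (SE, limma adjusted p = 1 and 0.804), and of -0.34 ± 0.33 and -0.50 ± 0.40 in the 10 (adjusted p = 0.539 and 0.447). In HCC4006 they were 14.4 and 73.2 FPKM against 7.51 and 16.1 FPKM, and the 73.2 was in the library that stood apart. ESRP2 had differences of opposite sign in PC9 and HCC827. In dormant PC9 it was at 4.01 and 5.53 FPKM against 1.71 and 1.95 FPKM, and in dormant HCC827 at 2.18 and 2.05 FPKM against 8.95 and 2.59 FPKM. In the 10 libraries it rose by 1.02 ± 0.24 in PC9 (SE, limma adjusted p = 0.016), and in HCC827 it fell by 1.68 ± 0.29 (adjusted p = 0.00515), a comparison with the single DMSO library at 8.95 FPKM. With all 12 libraries neither passed, at 1.02 ± 0.54 and -0.94 ± 0.54. In HCC4006 it was at 2.79 and 0.73 FPKM in dormant cells against 2.23 and 2.83 FPKM.

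Of 10 other splice regulators and transcripts whose exons ESRP proteins are known to choose, 4 rose and 0 fell with all 12 libraries. The shares of all genes tested were 10.9% higher and 4.55% lower. ENAH, an actin regulator, rose by 1.74 ± 0.49 (SE, limma adjusted p = 0.0408, 1.37 in the 10 libraries), RBFOX2, itself a splicing factor, by 1.43 ± 0.36 (adjusted p = 0.025, 1.1 in the 10 libraries), and EPB41L5, which takes part in polarity, by 1.09 ± 0.32 (adjusted p = 0.0467, 0.77 in the 10 libraries). By line, with all 12 libraries, the difference of ENAH was 0.36 in PC9, 0.83 in HCC827 and 4.04 in HCC4006. In the same order RBFOX2 was at 0.40, 2.89 and 1.01, and EPB41L5 at 1.56, 1.17 and 0.54. Dormant HCC4006 held 19.74 FPKM of ENAH in replicate 1 and 188.6 FPKM in replicate 2, which stood apart. ENAH and EPB41L5 missed the threshold under median-of-ratios scaling and quantile normalization. CD44 was not called with all 12 libraries, but both dormant libraries lay below both DMSO libraries in every line. It was at 299.5 and 248.3 FPKM in dormant PC9 against 515.3 and 452.5 FPKM in DMSO. In HCC827 it was at 81.36 and 69.61 FPKM against 182.3 and 88.65 FPKM, and in HCC4006 at 2514 and 2214 FPKM against 5371 and 4708 FPKM. Its mean difference was -1.03 in the 10 libraries. These are total levels of each gene, and exon choice was not analysed here.

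RAB25 was at 91.5 and 122.3 FPKM in dormant PC9 against 41.3 and 37.5 FPKM, and at 6.11 and 6.86 FPKM in dormant HCC827 against 2.07 and 1.32 FPKM. The dormant values were the higher ones in both lines. In HCC4006 they were 104.7 and 12.9 FPKM, on either side of 77.4 and 83.2 FPKM. The difference in the 10 libraries was 1.40 ± 0.22 in PC9 and 1.28 ± 0.27 in HCC827 (SE, limma adjusted p = 0.00214 and 0.0112), and 0.38 ± 0.27 in HCC4006 (adjusted p = 0.344). RAB25 with all 12 libraries had differences of 1.40, 1.49 and -1.08, each ± 0.78, and none passed. Dormant HCC827 at its highest held less RAB25 than any PC9 or DMSO HCC4006 library. Of 9 genes of the RAB11 family and its effectors tested, 3 rose and 0 fell in the mean over lines with all 12 libraries. The shares of all genes tested were 10.9% higher and 4.55% lower. RAB11FIP1, the RAB-coupling protein that binds RAB25, rose by 1.99 ± 0.24 (SE, limma adjusted p = 0.000863, 2.06 in the 10 libraries), from 1.08 and 0.985 FPKM to 4.39 and 4.04 FPKM in PC9 and from 3.6 and 3.39 FPKM to 21.8 and 26.1 FPKM in HCC827. In HCC4006 it went from 1.82 and 3.84 FPKM to 18.1 and 12.6 FPKM. RAB17, another epithelial RAB of polarised traffic, rose by 1.59 ± 0.35 (adjusted p = 0.014, 1.74 in the 10 libraries), and RAB11FIP4 by 0.56 ± 0.16 (adjusted p = 0.0454, 0.44 in the 10 libraries), a call lost under both other scalings.

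PRSS8, a protease held to the membrane by a lipid anchor, had the greatest differences of the 9 genes in PC9 and HCC827. It was at 64.0 and 119.8 FPKM in dormant PC9 against 15.8 and 13.6 FPKM, and at 16.7 and 16.6 FPKM in dormant HCC827 against 1.77 and 0.03 FPKM. The dormant libraries were higher in both lines, without overlap. In dormant HCC4006 it was at 86.2 FPKM in replicate 1 and 0.505 FPKM in replicate 2 against 19.0 and 17.6 FPKM, so the pair lay on either side of the controls. Its difference was 2.5 ± 0.29 in PC9, 2.67 ± 0.35 in HCC827 and 2.18 ± 0.35 in HCC4006 in the 10 libraries (SE, limma adjusted p = 0.000456, 0.00137 and 0.00395). PRSS8 with all 12 libraries had differences of 2.5, 3.38 and -0.75, each ± 1.42, and none passed. SPINT1, the transmembrane inhibitor, was at 9.84 and 12.8 FPKM in dormant PC9 against 3.02 and 3.04 FPKM, and at 16.7 and 16.9 FPKM in dormant HCC827 against 6.14 and 3.33 FPKM, higher in both lines without overlap. In HCC4006 it was at 27.7 and 0.175 FPKM in dormant cells against 17.1 and 21.2 FPKM. It rose by 1.60 ± 0.23 in PC9 and 1.32 ± 0.28 in HCC827 in the 10 libraries (SE, limma adjusted p = 0.00138 and 0.0125), with a difference of 0.52 ± 0.28 in HCC4006 (adjusted p = 0.224). SPINT1 with all 12 libraries had differences of 1.60, 1.68 and -1.79, each ± 1.12, and none passed. ST14, the transmembrane protease that SPINT1 inhibits, was at 8.58 and 13.4 FPKM in dormant PC9 against 9.47 and 8.06 FPKM. It was at 13.0 and 10.1 FPKM in dormant HCC827 against 7.54 and 1.20 FPKM, and at 8.87 and 2.52 FPKM in dormant HCC4006 against 7.54 and 8 FPKM. Dormant and DMSO values overlapped in PC9 and HCC4006. ST14 passed the test in no line and in neither fit.

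The 3 surface proteins were also set against each other within libraries. The ratio of PRSS8 to ST14, taken from FPKM values of the same library, was 1.67 and 1.69 in DMSO PC9 and 7.46 and 8.93 in dormant PC9. It was 0.236 and 0.025 in DMSO HCC827 and 1.29 and 1.64 in dormant HCC827, and 2.51 and 2.2 in DMSO HCC4006 against 9.72 and 0.201 in dormant HCC4006. The dormant ratio was the higher one in PC9 and HCC827, and in replicate 1 of dormant HCC4006. The ratio of ST14 to its inhibitor SPINT1 was 3.14 and 2.65 in DMSO PC9 and 0.872 and 1.05 in dormant PC9. In HCC827 it was 1.23 and 0.361 in DMSO and 0.78 and 0.595 in dormant cells, which overlap, and in HCC4006 0.441 and 0.377 against 0.32 and 14.4. These ratios were not tested.

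**Figure D3:**
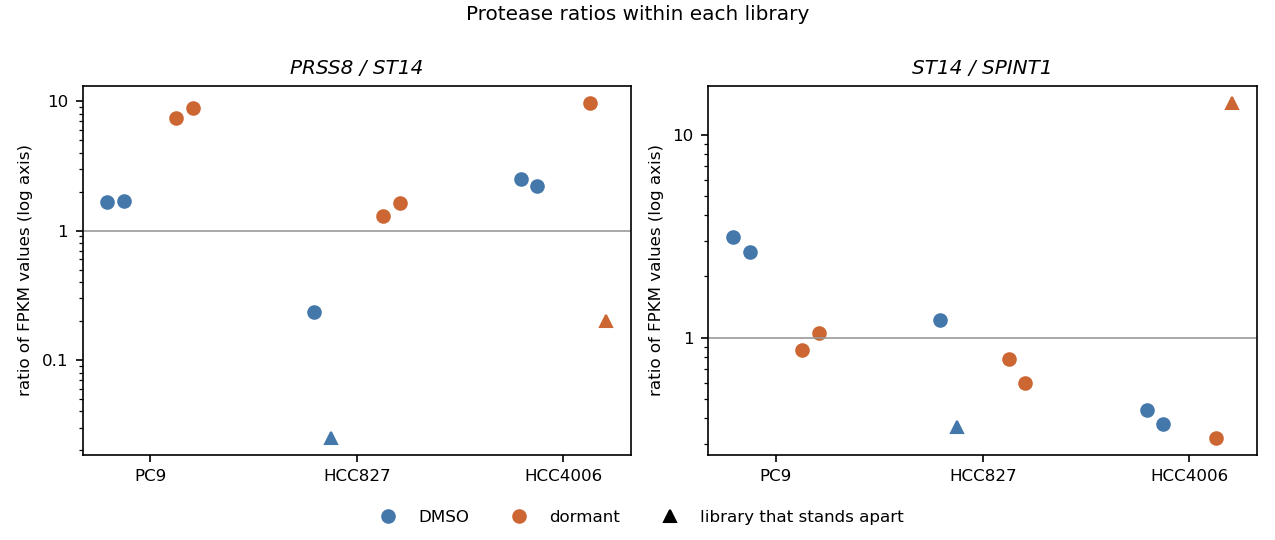
Ratio of FPKM values of PRSS8 to ST14 (left) and of ST14 to SPINT1 (right) within each library, on log axes, by line and condition; points are libraries, triangles the 2 that stand apart, and the line marks a ratio of 1. Dormant PC9 libraries lie at 7.46 and 8.93 on the left against 1.67 and 1.69 in DMSO, and replicate 2 of dormant HCC4006 lies at 14.4 on the right.

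Among 8 other surface serine proteases tested, 4 rose (TMPRSS2, TMPRSS3, TMPRSS13 and HPN) and 2 fell (TMPRSS4 and TMPRSS11E) in the mean over lines with all 12 libraries. The shares of all genes tested were 10.9% higher and 4.55% lower. TMPRSS13 rose by 1.53 ± 0.19 (SE, limma adjusted p = 0.00111, 1.44 in the 10 libraries), from 2.08 and 2.27 FPKM to 11.4 and 10.8 FPKM in PC9 and from 0.67 and 0.35 FPKM to 5.54 and 4.24 FPKM in HCC827. HPN (hepsin), another type II transmembrane protease, rose by 1.00 ± 0.20 (adjusted p = 0.0104, 1.16 in the 10 libraries), with its highest values of 3.45 and 5.96 FPKM in dormant PC9. TMPRSS11E fell by 1.48 ± 0.19 (adjusted p = 0.00134, -1.39 in the 10 libraries), from 18.9 and 21.6 FPKM to 4.09 and 4.08 FPKM in HCC827 and from 4.89 and 6.55 FPKM to 0.7 and 0.36 FPKM in HCC4006. Of 4 inhibitors tested, SERPINB5 (maspin) fell by 1.1 ± 0.27 (adjusted p = 0.0247, -0.89 in the 10 libraries) and none rose. SPINT2 (HAI-2), the related Kunitz inhibitor, was at 51.6 to 2535 FPKM, and its difference of 0.31 ± 0.66 did not pass the test with all 12 libraries (adjusted p = 0.776) or, at 0.43, in the 10 (adjusted p = 0.0616). A further list held substrates of ST14 and PRSS8, and also MST1R, which is the receptor of macrophage-stimulating protein. Of its 7 genes tested, 0 were called in either direction with all 12 libraries. Their median difference was -0.26 with all 12 libraries and -0.40 in the 10, beside 0.22 and 0.20 over all genes tested. In the 10 libraries the lowest mean differences of the 7 were those of F2RL1, CDCP1 and MST1R, at -0.84, -0.64 and -0.56. SCNN1A alone was above 0 there, at 0.41.

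Genes of epithelial adhesion and polarity had a median difference of 0.89 over the 13 tested (0.92 in the 10 libraries), beside 0.22 and 0.20 over all genes. With all 12 libraries 4 of the 13 rose and 0 fell, where 10.9% of all genes were called higher and 4.55% lower. LLGL2, a basolateral polarity protein, rose by 1.26 ± 0.28 (SE, limma adjusted p = 0.0155, 0.94 in the 10 libraries), and ERBB3, a partner of EGFR, by 1.16 ± 0.24 (adjusted p = 0.0105, 1.17 in the 10 libraries). Of the 13, CDH1 (E-cadherin), CLDN4 and CLDN7 had mean differences of 0.89, 0.95 and 0.93 in the 10 libraries, while MAL2 and PKP3 were below 0, at -0.44 and -0.23. In HCC4006 the differences of CDH1, CLDN4 and CLDN7 were -0.13, -0.75 and 0.81 in the 10 libraries. Of 5 mesenchymal genes tested, VIM and FN1 rose in the mean over lines with all 12 libraries and none fell, beside the same shares of all genes. The median difference of the 5 was 1.14 with all 12 libraries and 0.79 in the 10. In PC9 alone VIM had a difference of -1.91 on the log2 scale in both fits, which did not pass with all 12 libraries (limma adjusted p = 0.1465). FN1 (fibronectin) rose by 2.51 ± 0.26 (adjusted p = 0.000431, 2.29 in the 10 libraries), with both dormant libraries above both controls in every line, and went from 5.51 and 7.98 FPKM to 57.8 and 69.0 FPKM in PC9. VIM (vimentin) rose by 1.14 ± 0.33 in the mean (adjusted p = 0.0423, 0.79 in the 10 libraries), but its differences were unequal between lines (F test, adjusted p = 0.0177). It was at 2.04 and 2.48 FPKM in dormant PC9 against 11.7 and 10.8 FPKM, and at 204.8 and 211.9 FPKM in dormant HCC827 against 25.9 and 7.23 FPKM. In HCC4006 it was at 504.3 and 653.8 FPKM against 216.9 and 183.8 FPKM. In HCC827 with all 12 libraries SNAI2, VIM and FN1 rose, as did ERBB3. The mean call of VIM was lost under median-of-ratios scaling and without any of 8 of the 12 libraries left out singly. Of the 23 called genes of these lists, 8 kept their call without each library in turn, among them GRHL3, FN1, RAB11FIP1, TMPRSS4, TMPRSS11E, TMPRSS13 and HPN. The other 15 lost it without at least 1 library, ERBB3 without 1 and ENAH and EPB41L5 without 10.

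RefSeq promoter sequences (GRCh38.p14) were at hand for 3 of the 9 genes, RAB25, ELF3 and SPINT1, which are among the 4 that rose together in the 10 libraries. The 250 bases before each start were searched on both strands for the E-box CAGGTG, which ZEB and SNAI repressors bind, the grainyhead motif AACNGGTT, the TEAD motif GGAATG (TEAD is the DNA-binding partner of YAP, the coactivator named in the study's title) and the ETS motif GGAAGT. No 2 matches overlapped. Shown are the window of RAB25 (chr1:156060910-156061159, plus strand) and 30 bases around the match of ELF3 (chr1:202010455-202010484, plus strand) and of the second SPINT1 start (chr15:40844439-40844468, plus strand), 5′ to 3′, with the E-box in capitals.
RAB25: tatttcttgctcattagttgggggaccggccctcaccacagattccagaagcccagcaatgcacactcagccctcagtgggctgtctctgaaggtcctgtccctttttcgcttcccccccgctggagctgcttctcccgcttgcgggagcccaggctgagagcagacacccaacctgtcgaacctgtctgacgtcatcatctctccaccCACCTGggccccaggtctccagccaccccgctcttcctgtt
ELF3: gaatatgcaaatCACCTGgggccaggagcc
SPINT1: tcccgggctgatCAGGTGtgtctcctcctc
The E-box began at -41 in RAB25, -120 in ELF3 and -26 at the second SPINT1 start, and the window of the first SPINT1 start held no match. Of all 35116 promoters of the table, 17.5% held this E-box, 19.5% the ETS motif, 11.9% the TEAD motif and 1.5% the grainyhead motif. The second SPINT1 start also held 1 ETS match, and none of the windows held a TEAD or a grainyhead match. A match describes letters only, and binding was not measured.

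The 9 genes differ in base composition. Median differences between replicates over all genes tested also followed base composition, most in the 2 groups with a library that stood apart. GC content of the longest transcript was 42.8% for ESRP1 and 49.8% for GRHL2, and 56.0% to 62.8% for the other 7. In dormant HCC4006 replicate 2 minus replicate 1 was 2.27 for ESRP1 and 3.49 for GRHL2 on the log2 scale, and -0.10 to -5.86 for the other 7, with PRSS8 the lowest. ESRP1, GRHL2 and PRSS8 lay far from the medians of genes of like GC content, and GRHL2 had the opposite sign. Over all genes tested the median of this difference went from 1.1 below 40% GC to -1.04 between 55% and 60%. The median was 0.11 between 40% and 45%, where ESRP1 falls, and -0.55 between 45% and 50%, where GRHL2 falls. At 60% and above, where PRSS8 falls, it was -0.99. In DMSO HCC827 it went from 0.28 below 40% to -0.71 at 60% and above, and the 9 genes were all below 0, from -0.09 for ESRP1 to -1.96 for ST14. Between the same bins it went from -0.33 to 0.33 in dormant PC9 and from 0.6 to 0.12 in DMSO HCC4006. It changed less in DMSO PC9, from -0.12 to -0.03, and in dormant HCC827, from -0.07 to -0.16. In dormant PC9 it was -0.44 for ESRP1 and -0.60 for GRHL2, and 0.01 to 0.89 for the other 7, with PRSS8 the highest. Each library's trend on GC content and transcript length was also removed in the fit of all 12 libraries. No gene of the 9 was then called in the mean over lines, as without the removal. ESRP2 in HCC827 was called, at -1.62 (limma adjusted p = 0.00874). The removal was not run on the 10 libraries, so it does not bear on the differences called there. The part of base composition in the differences between lines and conditions was not tested further.

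**Figure D4:**
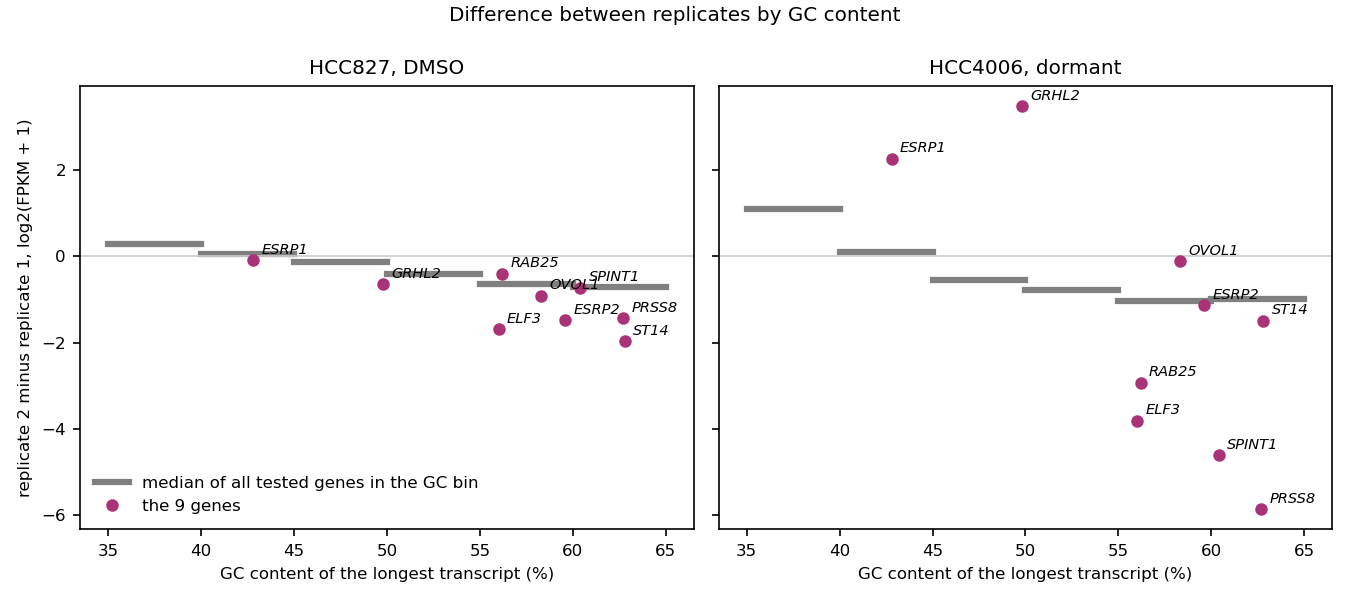
Replicate 2 minus replicate 1 in log2(FPKM + 1) on the vertical axis against GC content of the longest transcript in percent on the horizontal axis, for DMSO HCC827 and dormant HCC4006; points are the 9 genes and grey bars the medians of all tested genes in bins of GC content, the outer bins being open-ended. In dormant HCC4006 ESRP1 and GRHL2 lie at 2.27 and 3.49, and PRSS8 lies at -5.86.

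The genes with the most similar profile were taken as those with the smallest root mean square difference from each gene, after centring, over the 12 libraries in log2(FPKM + 1). For ELF3 they were NKIRAS2 (0.328) and BABAM2 (0.412), and for RAB25 the nearest was BID (0.513). PRSS8 was nearest to SQSTM1 (0.54) and HLA-E (0.606), SPINT1 to GEMIN8 (0.26) and SPR (0.34), and ST14 to IFI30 (0.222) and TNK1 (0.232). GRHL2 was nearest to MT-ND6 (0.471) and AP1AR (0.495), OVOL1 to LRRC61 (0.281) and ACOT8 (0.289), and ESRP1 to MKLN1 (0.153) and LARP4 (0.19). The 2 profiles nearest to ESRP2 have no symbol in the table. Over the 10 libraries the nearest genes were OCLN, the tight junction protein occludin, for ELF3 (0.217), SMIM22 for RAB25 (0.262), TMC4 for PRSS8 (0.468), TMEM63C for ST14 (0.162), RAB11B for GRHL2 (0.234), NAA38 for OVOL1 (0.23), INIP for ESRP1 (0.126) and again GEMIN8 for SPINT1 (0.255). The nearest gene thus changed for 7 of the 8 genes named when the 2 libraries were left out.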

How the data were processed

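Per the submitters' processing notes, the build was hg19 (GRCh37) and the software named, without role or order, was DESeq2 1.10.1, STAR 2.5.1b and Cufflinks 2.2.1. The authors deposited 1 table of FPKM values with 24 value columns, 2 per library (R1 and R2), whose meaning is not given in the sources used here, and these were averaged per library. Read depth is unknown, since no counts were used. Members and lists were chosen with earlier results of these data known. Values were tested as log2(FPKM + 1) with limma 3.58.1 in R 4.3.3, with 1 coefficient for each of the 6 groups, eBayes with trend and two-sided tests, on genes that reached 1 FPKM in 2 or more libraries. Benjamini-Hochberg adjustment ran over the 14699 genes, with a threshold of 0.05. The contrasts were dormant minus DMSO per line and averaged over lines, and F tests of equal differences and equal DMSO levels. The fit had 6 residual and 3.84 prior degrees of freedom, and 4 and 4.97 without the 2 libraries that stood apart. The code was tested on data simulated for 12 libraries, with each gene's spread pooled over the groups. Of changes of 1 unit on the log2 scale, 18% were called in the mean over lines and 1% in each line. For changes of 2 units, 76% were called in the mean and 10% to 18% within a line. A gene that was not called may therefore still have changed. Alternatives were other scalings, pseudocount and filter, array weights, a replicate block, single lines, R1 or R2 columns alone, and libraries left out. The 2 libraries that stood apart were picked from their own values in these data. Removal of GC and length trends (GENCODE transcripts, 14188 genes) was chosen after seeing the data. Genes named were the 9, up to 3 called genes per further list by size of the mean difference, up to 2 with the strongest variation between lines, the 2 nearest profiles of each of the 9, and GAPDH and ACTB. Genes in lists that were named beyond this rule were named after their values were seen. PECAM1 was not analysed here, and some genes that the rule names are not reported here.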

Additional observations from a re-analysis of the deposited data

Results flagged for a closer look

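The dormant minus DMSO difference of VIM, the intermediate filament of mesenchymal cells, was unequal between the 3 lines in all 12 libraries (limma's moderated F test, adjusted p = 0.0177), at -1.91 in PC9, 3.81 in HCC827 and 1.52 in HCC4006 on the log2(FPKM + 1) scale.

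In the 10 libraries the difference was unequal between lines for ESRP2 (limma adjusted p = 0.00705), at 1.02 in PC9, -1.68 in HCC827 and 0.11 in HCC4006. It was unequal for GRHL2 (adjusted p = 0.0351), at -0.93, 1.23 and 0.19. It was unequal for OVOL1 (adjusted p = 0.0482), at 1.33, 0.24 and -0.42. None of these 3 passed with all 12 libraries.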

How the results depend on the processing

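Read depth is unknown, and with 2 libraries a group the spread rests on 6 residual degrees of freedom. Over the 9 genes, 1105 values under the alternatives kept their direction and side of the threshold, 96 passed it anew, 1 lost it, 19 uncalled values changed sign, and 3 values called under the alternative had the opposite sign. These 3 were in HCC4006: ELF3 at 1.19 and PRSS8 at 2.18 in the 10 libraries, and PRSS8 at 2.18 without replicate 2 of dormant HCC4006 (range with single libraries left out -3.68 to 2.18). The direction there depends on which dormant HCC4006 library is kept: without replicate 1, PRSS8 was at -3.68, SPINT1 at -4.09, ELF3 at -2.62, RAB25 at -2.55, ESRP1 at 2.62 and GRHL2 at 3.67, all called. RAB25 lost its call of unequal DMSO levels without replicate 2 of DMSO HCC827 (limma adjusted p = 0.0523). Values with R1 or R2 columns alone changed no count by over 1.5 times. The cause of the following changes was not tested, beyond the number of libraries and genes in each fit.

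Counts of calls are given as called with all 12 libraries and then under each alternative that moved them by over 1.5 times. In the mean over lines, 1599 genes were higher: 1003 without a filter, 4415 in the 10 libraries, 2 with the 3 lines as replicates, and 683 to 4771 with single libraries left out. Lower were 669: 1241 with median of ratios, 1316 with quantile normalization, 1884 in the 10 libraries, 0 with the lines as replicates, 1190 with GC and length trends removed, and 342 to 2619 with single libraries left out. Of the 9 genes, 0 were higher: 1 with array weights, 4 in the 10 libraries, and 0 to 4 with single libraries left out.

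In PC9, 268 genes were higher: 167 with pseudocount 0.1, 1601 with the line alone, 2697 with array weights, 1919 in the 10 libraries, and 66 to 1048 with single libraries left out. Lower were 131: 237 with median of ratios, 297 with quantile normalization, 79 with pseudocount 0.1, 1081 alone, 1790 with array weights, 1272 in the 10 libraries, 255 with trends removed, and 28 to 590 with single libraries left out. Of the 9 genes, 0 were higher: 4 alone, 6 with array weights, 6 in the 10 libraries, and 0 to 4 with single libraries left out. The 0 lower became 1 with array weights and 1 in the 10 libraries.

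In HCC827, 450 genes were higher: 0 with the line alone, 1169 with array weights, 1634 in the 10 libraries, and 62 to 2174 with single libraries left out. Lower were 211: 384 with median of ratios, 463 with quantile normalization, 0 alone, 451 with array weights, 965 in the 10 libraries, 398 with trends removed, and 22 to 800 with single libraries left out. Of the 9 genes, 0 were higher: 3 with array weights, 5 in the 10 libraries, and 0 to 5 with single libraries left out. The 0 lower became 1 in the 10 libraries and 1 with trends removed.

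In HCC4006, 718 genes were higher: 334 with median of ratios, 354 with quantile normalization, 459 with pseudocount 0.1, 336 without a filter, 0 alone, 17 with array weights, 2187 in the 10 libraries, 477 with trends removed, and 76 to 4580 with single libraries left out. Lower were 174: 287 with median of ratios, 292 with quantile normalization, 115 with pseudocount 0.1, 110 without a filter, 0 alone, 7 with array weights, 547 in the 10 libraries, 393 with trends removed, and 49 to 4027 with single libraries left out. Of the 9 genes, 0 were higher: 2 in the 10 libraries, and 0 to 2 with single libraries left out. The 0 lower ranged from 0 to 4 with single libraries left out.

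Unequal differences between lines were called for 217 genes: 60 with pseudocount 0.1, 465 with array weights, 1311 in the 10 libraries, and 65 to 8050 with single libraries left out. Of the 9 genes, 0 became 1 with array weights, 3 in the 10 libraries, 1 with trends removed, and 0 to 9 with single libraries left out. Unequal DMSO levels were called for 1769 genes: 2670 with quantile normalization, 6257 with array weights, 7116 in the 10 libraries, and 685 to 6341 with single libraries left out. Of the 9 genes, 1 became 2 with quantile normalization, 5 with array weights, 7 in the 10 libraries, 2 with trends removed, and 0 to 4 with single libraries left out.

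A replicate block within each line was fitted to all 12 libraries only. It called 0 of the 9 genes in any dormant against DMSO comparison, as did the fit without it. With the replicate block, genes called higher and lower were 89 and 34 in PC9, 105 and 57 in HCC827, and 413 and 73 in HCC4006, with 2 unequal between lines and 886 with unequal DMSO levels. Same-numbered libraries deviated together with correlations of 0.091 in PC9, 0.037 in HCC827 and 0.168 in HCC4006, so the numbers were not taken to pair the libraries.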
